A study of Homo sapiens with 82 samples.

Results

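JunD was mapped by ChIP-seq in HT29 cells, a human colorectal adenocarcinoma line, and 943 of 8960 JunD sites (10.5%, Wilson 95% interval 9.91 to 11.2) carried no peak of any of the 3 nuclear receptors studied. A site was the merged span of JunD peaks that overlapped by at least 1 bp between the 2 replicates, and a site was called receptor-free when no peak of the 12 receptor libraries touched it. The other 8017 sites are called receptor-bound. The receptor peaks chose the members, so their absence is a definition and not a result, whereas the acetylation and polymerase peaks compared further on come from libraries that the choice did not use.

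JunD is a subunit of AP1, a family of leucine zipper factors in which Jun proteins pair with each other or with Fos and ATF proteins and bind short palindromic DNA elements at enhancers and promoters. AP1 is often found together with nuclear receptors on DNA. LXRA and LXRB are oxysterol receptors that control cholesterol and lipid genes, and PPARG is a fatty acid receptor that controls lipid storage and epithelial differentiation. H3K27ac, an acetylated histone H3 lysine, marks active enhancers and promoters, and RNA polymerase II (RNAP2) marks promoters and transcribed gene bodies.

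JunD was mapped only in cells given DMSO, the drug carrier, in 2 replicates with 11069 and 13027 peaks. LXRB and a FLAG-tagged LXRA transgene, the latter in transfected HT29 cells selected with an antibiotic, were mapped after 2 and 48 h of 10 μM GW3965, an LXR agonist, and PPARG after 2 and 48 h of 10 μM rosiglitazone, a PPARG agonist, with 2 replicates each. H3K27ac and RNAP2 were mapped with 2 replicates in DMSO and at 24 h and at 48 h of 10 μM GW3965 or rosiglitazone, so that each had 10 libraries. The ChIP-seq labels name no hour of DMSO treatment, and the study describes the RNAP2 control as the start of the time course, so that in comparisons of marks with DMSO the drug and the time in culture cannot be told apart. RNA was counted in 4 libraries for each of DMSO, GW3965, T0901317, a second LXR agonist, and rosiglitazone at 24 and 48 h, with total counts from 21044800 to 51332700. Peak scores are minus 10 times the log10 of the p-value of the peak caller, none is below 100 among the JunD peaks, and read depth at the peaks is unknown. Nothing in the labels says that replicates came from separate cultures, so p-values measure only the spread between these samples, which may be technical. The RNA libraries had the epithelial markers EPCAM at 244 to 380, CDH1 at 240 to 604 and VIL1 at 46.5 to 258 CPM (read counts scaled to the size of each library), and the leukocyte marker PTPRC and the fibroblast marker COL1A2 at or near 0 (at most 5 and 6 counts in a library).

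The set depended on how deeply each receptor was called, since the receptor libraries held from 4555 peaks (LXRB at 2 h, Rep2) to 30953 peaks (LXRA-FLAG at 2 h, Rep1). Single libraries touched between 29.5% and 80.5% of the JunD sites. At the border of the definition, 453 JunD sites were touched by exactly 1 receptor library. These single contacts were made by LXRA-FLAG at 268 sites, by LXRB at 107 and by PPARG at 78, and their receptor score had a median of 131. The 3 lowest of those scores outside chromosome 8 were 100.02 for PPARG at chr3:66007292-66008126, 100.07 for LXRA-FLAG at chr2:128986304-128987130 and 100.1 for LXRA-FLAG at chr12:46574227-46582510 (hg19, as are all positions here). On the inner side of the border, the nearest receptor peak lay 1 bp from the receptor-free site at chr3:170047905-170048673, 5 bp from chr7:99273321-99276420 and 9 bp from chrX:96994933-96995669. Such close members were few. The median gap was 10185 bp, with 8 members within 100 bp, 86 within 1000 bp and 461 (48.9%) within 10000 bp of a receptor peak. When only receptor sites found in both replicates were used, 1928 JunD sites were receptor-free, and with the endogenous receptors alone 1639 were.

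Receptor-free sites had lower JunD scores but a wide spread of widths. The median JunD score was 194 at receptor-free and 208 at receptor-bound sites in Rep1, and 189 against 252 in Rep2. The lower of both scores ran from 100 to 3021 among the members, with a median of 157, and the members overlapped the receptor-bound sites over nearly their whole range. The median site width was 1396 bp against 1103 bp, and 165 members (17.5%) against 607 receptor-bound sites (7.57%) spanned 3000 bp or more. Width did not change evenly: the members made up 13.8% of the narrowest quartile of JunD sites, 3.57% of the second, 5.98% of the third and 18.7% of the widest. Members were thus few among sites of intermediate width. By JunD score the receptor-free share fell from 14.4% in the lowest quartile to 7.19% in the highest. Scores and widths are given without a test, because they come from the peaks that defined the sites. The widest JunD peak of a replicate at a site is another measure than the merged site width. Its median was 1234 bp at the members and 1065 bp at receptor-bound sites in Rep1, and 991 against 955 bp in Rep2. The order of these peak widths turned with the receptor rule. The ratio of JunD peak widths (receptor-bound over receptor-free median, mean of both replicates) was 0.913 under the rule used. It was 1.11 when a receptor site had to be present in both replicates.

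**Figure D1:**
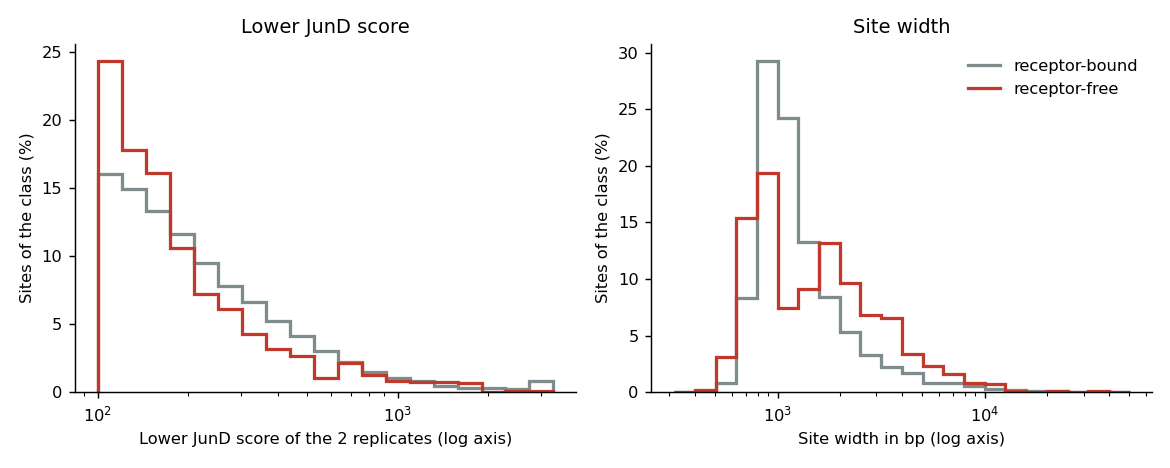
The lower JunD score of both replicates (left, log axis) and the site width in bp (right, log axis) are drawn as the percentage of sites of each class per bin, for 943 receptor-free (red) and 8017 receptor-bound (grey) sites. Receptor-free sites are in excess at low scores, and their widths form 2 humps, below 1000 bp and near 2000 bp, whereas the receptor-bound widths have 1 peak, in the same bin as the first hump, and hold 24.3% in the next bin, where the receptor-free sites drop to 7.42%.

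The replicates of JunD did not treat both classes alike. The Rep1 score was above the Rep2 score at 521 of the members (55.2%) but at 33.3% of the receptor-bound sites. The Spearman correlation between replicate scores was 0.603 across the members and 0.778 across the receptor-bound sites, which is a description across sites of the same 2 libraries.

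H3K27ac was nearly missing from the receptor-free sites. In DMSO, 47 members (4.98%) had an H3K27ac peak in Rep1 and 81 (8.59%) in Rep2, against 52.6% and 59.1% of the receptor-bound sites. A peak in both DMSO libraries was found at 45 members (4.77%), where the share over all JunD sites was 44.7%. In both libraries of a treatment a peak was found at 55 members (44% over all JunD sites) and 52 members (51.1%) at 24 and 48 h of GW3965, and at 87 (60.3%) and 77 (60.3%) with rosiglitazone. By library, after GW3965 8.06% and 8.80% of the members had a peak at 24 h and 8.70% and 7.85% at 48 h, and after rosiglitazone 10.8% and 11.03% at 24 h and 12.1% and 8.91% at 48 h. The highest share among the members, 12.1%, lay far below the lowest among the receptor-bound sites, 52.6%. The gap between the classes was 54.7 ± 5.001 percentage points (SD, n = 10 libraries) and had the same direction in 10 of 10 libraries (exact two-sided sign-flip test over libraries, p = 0.00195, the smallest this test can give, adjusted p = 0.0137 over 14 tests). Over all 10 libraries, 769 members (81.5%) never had an H3K27ac peak, against 18.1% of the receptor-bound sites, and 32 members had one in every library.

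RNAP2 was common at the same sites. In DMSO, 612 members (64.9%) had an RNAP2 peak in Rep1 and 623 (66.1%) in Rep2, against 91.5% and 90.3% of the receptor-bound sites. Both DMSO libraries had a peak at 559 members (59.3%), where the share over all JunD sites was 84.7%. Both libraries of a treatment had one at 402 members (67.7% over all JunD sites) and 508 members (63.9%) at 24 and 48 h of GW3965, and at 655 (88.3%) and 603 (77.4%) with rosiglitazone. By library, after GW3965 43.8% and 64.1% of the members had a peak at 24 h and 60.7% and 55.4% at 48 h. After rosiglitazone the shares were 76.8% and 77.2% at 24 h and 67.7% and 70.7% at 48 h. The Rep1 library of GW3965 at 24 h stood apart from its replicate by 20.3 percentage points. The gap to the receptor-bound sites was 18.997 ± 6.98 percentage points (SD, n = 10 libraries) with 10 of 10 libraries in the same direction (exact sign-flip test, p = 0.00195, adjusted p = 0.0137), and it was smaller than the gap of H3K27ac in each of the 5 conditions. Without replicate 1 of JunD and the receptors, where 2615 sites were receptor-free, it was 31.6 points, and without replicate 2 it was 19.1.

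**Figure D2:**
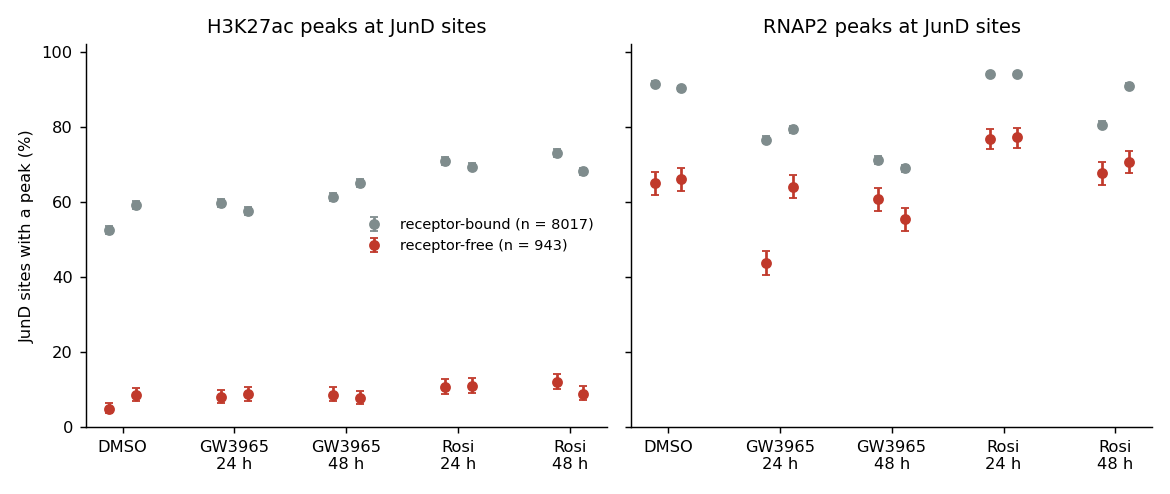
Each point is the percentage of JunD sites with an H3K27ac (left) or RNAP2 (right) peak in 1 library, with the Wilson 95% interval, for receptor-free (red) and receptor-bound (grey) sites in DMSO and after GW3965 or rosiglitazone (Rosi). The receptor-free sites stay between 4.98% and 12.1% for H3K27ac and range from 43.8% to 77.2% for RNAP2.

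The RNAP2 peaks at receptor-free sites were broad. For each site with RNAP2 the widest overlapping peak and the highest score were taken, so a peak over several sites counted at each. The median of this width over the members lay between 1766 and 5232 bp in a library, which was 1.60 to 3.05 times the median over receptor-bound sites in the same library. No correction was made for the width of the JunD sites. The median of the highest score was higher at the members than at receptor-bound sites in 8 of 10 libraries, the exceptions being DMSO Rep1 with 406 against 454 and GW3965 at 24 h Rep1 with 321 against 382. RNAP2 peaks covered 70.5% and 74.3% of the base pairs of the members in DMSO, and H3K27ac peaks 3.72% and 5.98%. By base pairs covered the RNAP2 gap to the receptor-bound sites was 8.56 points (exact sign-flip test, p = 0.0254). It was turned in 3 of 10 libraries, with 74.7% of the members' base pairs against 74.3% at GW3965 24 h Rep2, 65.7% against 63.9% at GW3965 48 h Rep1 and 76.5% against 72.7% at rosiglitazone 48 h Rep1. Where an H3K27ac peak was present, the median of the highest score at a site was lower at the members than at receptor-bound sites in each of the 10 libraries, by a factor of 1.21 to 2.94.

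Most members fell into 3 kinds by their marks in DMSO. The first and largest kind, 493 members (52.3%), had RNAP2 in both and H3K27ac in neither library, a state found at 27.3% of the receptor-bound sites. These sites were broad, with a median width of 1992 bp, and had a median lower JunD score of 200. The second kind, 257 members (27.3%, against 5.41% of the receptor-bound sites), had neither mark in any DMSO library. They were narrow and weak, with medians of 797 bp and 127, and lay farthest from a receptor peak, at a median gap of 17690 bp. The third kind, 41 members (4.35%, against 48.6%), had both marks in both libraries. Their median width was 2060 bp and their median lower score 136, and 17 of them (41.5%) had a receptor peak within 1000 bp, against 7.71% of the first and 6.23% of the second kind. The remaining 152 members had a mark in 1 of 2 libraries or another combination. The size of the first kind moved with the rules, from 34.1% to 64.4% of the receptor-free sites over the receptor and mark alternatives.

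Site width separated the RNAP2 shares of the members far more than their H3K27ac shares. In the narrowest quartile, 26.8% and 21.9% of 310 members had RNAP2 in the DMSO replicates, and in the widest quartile 90.2% and 94.7% of 419 members did. For H3K27ac the corresponding shares were 1.94% and 6.13% in the narrowest and 6.92% and 9.55% in the widest quartile. Over all libraries the median H3K27ac share of the members rose from 5.97% in the narrowest to 10.5% in the widest quartile. At receptor-bound sites H3K27ac rose with width, from 16.3% and 23.8% to 83.2% and 86.4%. RNAP2 was present at 99.3% and 99.4% of the widest receptor-bound sites. Over all libraries, the widest quartile had the largest H3K27ac gap between the classes (75.8 percentage points) and the smallest RNAP2 gap (5.92 points). In the third quartile these gaps were 73.3 and 11.4 points. In the highest quartile of JunD scores the RNAP2 gap was 0.293 percentage points (exact sign-flip test, p = 0.900), while the H3K27ac gap remained in every quartile of score and of width.

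**Figure D3:**
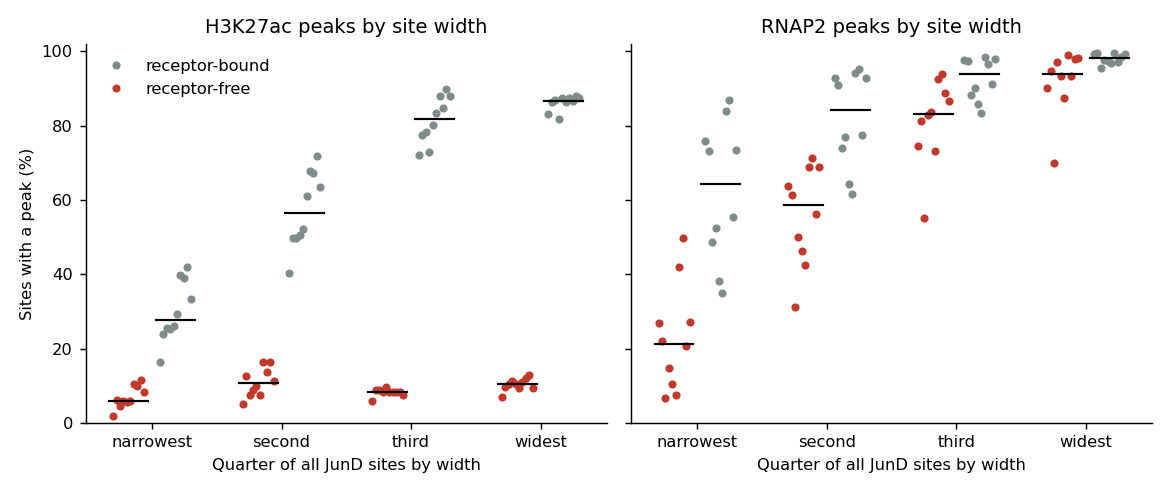
JunD sites were split into quartiles by width, and each point is the percentage of receptor-free (red) or receptor-bound (grey) sites with an H3K27ac (left) or RNAP2 (right) peak in 1 of 10 libraries, with the median as a bar. Among receptor-free sites H3K27ac stays at or below 16.3% in each quartile, whereas RNAP2 goes from a median of 21.3% in the narrowest to 94.0% in the widest.

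With the number of receptor contacts some measures of the members followed the order of the other JunD sites and some did not. H3K27ac in DMSO was found at 21.4% and 27.4% of the sites touched by 1 receptor library and at 76.6% and 81.8% of those touched by all 12, above the 4.98% and 8.59% of the members. The share with RNAP2 in DMSO was 64.9% and 66.1% at the members and 65.1% and 59.6% at the sites of 1 contact. Over all 10 libraries it averaged 64.7% at 0 contacts and 55.3% at 1. The members lay further above the sites of 1 contact at 48 h of GW3965 (60.7% and 55.4% against 42.2% and 39.1%) and of rosiglitazone (67.7% and 70.7% against 50.1% and 58.5%). The median width did not follow the order, being 1396 bp at 0 contacts, 911 bp at 1 contact and 1323 bp at 12. Nor did the median lower JunD score, at 157 for the members. It was 149, 151, 152 and 154 at 1, 2, 3 and 4 contacts, and 335 at 12. A low JunD score was thus not particular to the members. The state with RNAP2 and no H3K27ac in DMSO held 52.3% of sites with 0 contacts, and between 14.6% and 37.4% at each higher number. These values are given over sites of the same libraries and without a test.

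**Figure D4:**
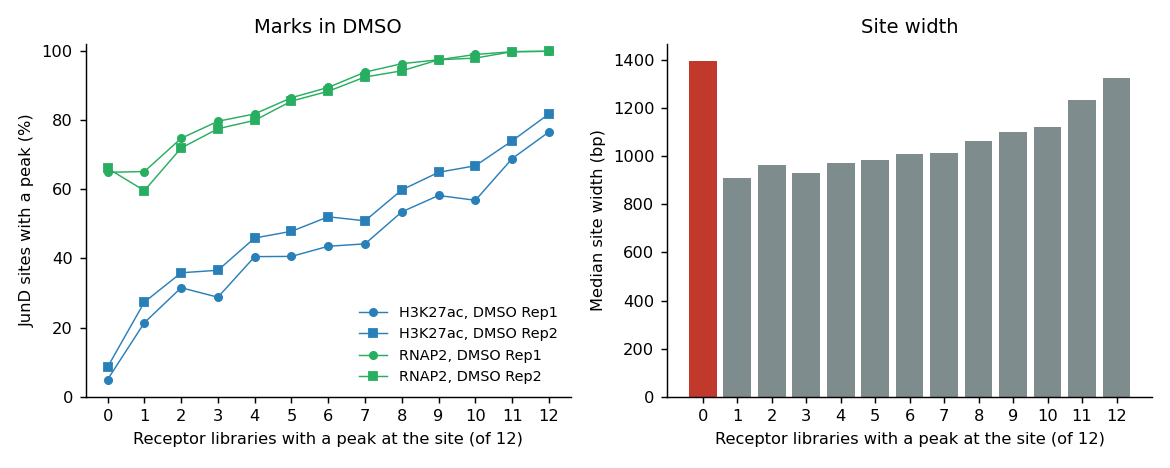
JunD sites are grouped by the number of receptor libraries, from 0 to 12, with a peak at the site. The left panel shows the percentage with an H3K27ac (blue) or RNAP2 (green) peak in each DMSO replicate, and the right panel the median site width in bp, with the receptor-free sites in red: H3K27ac rises from 4.98% and 8.59% at 0 to 76.6% and 81.8% at 12, and the width is highest at 0.

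The strongest members outside chromosome 8, where no site was named, had RNAP2 and lacked H3K27ac altogether. The 6 of these sites with the highest lower JunD score were chr11:1754879-1765580 (JunD scores 3021 and 3100), chr1:207531097-207540500 (2996 and 2389), chr7:30666449-30676199 (1876 and 1868), chr12:104710319-104716721 (1854 and 2786), chr12:104726430-104732324 (1924 and 1740) and chr12:104701919-104710274 (3100 and 1631). They were 5895 to 10702 bp wide and lay 9867 to 27772 bp from a receptor peak. None had an H3K27ac peak in 10 libraries, and RNAP2 was present in 10 libraries at the first 3 and in 9 at the 3 sites on chromosome 12. The missing library was GW3965 at 24 h Rep1 each time. At the site on chromosome 7 the RNAP2 scores were 1319 and 2791 in DMSO, 790 and 3100 at 24 h and 976 and 408 at 48 h of GW3965, and 3100, 3100, 3100 and 2986 with rosiglitazone. Every rosiglitazone library and 1 GW3965 library at 24 h were thus above both DMSO libraries there. At the site on chromosome 11 the RNAP2 scores were 233 and 664 in DMSO, 714 and 321 at 24 h and 3214 and 2048 at 48 h of GW3965, and 899 and 210 at 24 h and 3100 and 451 at 48 h of rosiglitazone. At 48 h both GW3965 libraries and 1 of 2 rosiglitazone libraries were thus above both DMSO libraries, and RNAP2 peaks covered only 38.8% and 47.6% of the site in DMSO. The score 3100 recurs exactly across sites and libraries and read depth is unknown, so the order of these scores may not be an order of RNAP2 level.

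The opposite kind was represented by members without any mark. In all 20 libraries, 101 members (10.7%) had neither H3K27ac nor RNAP2, against 0.948% of the receptor-bound sites. The 3 with the highest lower JunD score, chromosome 8 left out, were chr11:82638093-82638934 (275 and 267), chr11:82952114-82953045 (265 and 292) and chr10:100005386-100007561 (257 and 295). Their JunD scores lay well under those of the strongest members, and their nearest receptor peaks were 24891, 14428 and 2293 bp away.

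Some of the receptor-free sites lay in runs. The nearest JunD site was itself receptor-free for 316 members (33.5%), but for 7.75% of the receptor-bound sites. Members also had closer JunD neighbours of either class, at a median distance of 19642 bp against 37083 bp for receptor-bound sites. Runs of receptor-bound sites were not counted. With neighbouring members joined when they were at most 10 kb apart and no receptor-bound JunD site lay between them, 281 members (29.8%) formed 99 runs. Chromosome 8 aside, the longest run held 15 sites at chr1:94630142-94692299, followed by 7 sites each at chr7:30641840-30689844 and chr1:207515446-207542834. No site of these 3 runs had H3K27ac in any library, and RNAP2 was present in 118 of 150 combinations of site and library in the first, 70 of 70 in the second and 51 of 70 in the third. The run at chr12:104696414-104732324 held 6 sites, among them the 3 named above, and also had no H3K27ac. Sites of a run share their surroundings and are not independent. Shares of receptor-free sites by chromosome ran from 6.58% (chromosome 21, 5 of 76 sites) to 16.3% (chromosome 15, 47 of 288 sites).

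Few members gained or lost H3K27ac between DMSO and a drug. A gain meant no peak in either DMSO library and a peak in both libraries of a treatment, and a loss the reverse. The 2 libraries of a group disagreed on H3K27ac at 38 members in DMSO. They did so at 49 and 52 members at 24 and 48 h of GW3965, and at 32 and 44 with rosiglitazone. These were 3.39% to 5.51% of the members, against 7.60% to 20.4% of the receptor-bound sites. With GW3965, 6 members gained H3K27ac at 24 h (0.636%, with 1.48% over all JunD sites) and 8 at 48 h (0.848%, with 3.88%). With rosiglitazone, 33 gained it at 24 h (3.499%, with 9.17%) and 22 at 48 h (2.33%, with 8.47%). Losses were 0 at both times of GW3965, where all JunD sites lost 0.413% and 0.402%, and 1 and 0 with rosiglitazone, with 0.580% and 0.391%. The share that gained was thus below the share over all JunD sites in each of the 4 treated groups. A gain was possible at the 860 members and 3029 receptor-bound sites without H3K27ac in DMSO, and of these 0.698%, 0.930%, 3.84% and 2.56% of the members gained it in the order above, against 4.19%, 11.2%, 26.0% and 24.3% of the receptor-bound sites. None of the Wilson intervals of the classes overlapped. These intervals treat sites of the same libraries as independent and carry counting error only, so this is a description and not a test. Only 45 members had H3K27ac in both DMSO libraries and could lose it, and a count of 0 among these has a Wilson upper limit of 7.87%, so a difference in losses from the receptor-bound sites (0.884% to 1.29% of 3961) was not detectable. Of the members gained with rosiglitazone 17 were the same at both times, which is 51.5% of those at 24 h and 77.3% of those at 48 h. Of the members gained with GW3965 only 1 was. Among receptor-bound sites 582 were the same at both times of rosiglitazone, out of 789 gained at 24 h and 737 at 48 h. With GW3965 this held for 100 receptor-bound sites, out of 127 and 340.

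The member gained in all 4 GW3965 libraries (0.106% of the members, against 1.25% of the receptor-bound sites) was chr1:150539546-150546495, a site of 6950 bp. Its H3K27ac scores were 111 and 142 at 24 h and 324 and 294 at 48 h of GW3965, and it also had a peak in 1 of 2 rosiglitazone libraries at each time. The 17 gained in all 4 rosiglitazone libraries were led by JunD score, chromosome 8 left out, by chr15:69747595-69750708, chr17:39035190-39038953 and chr2:55461941-55464812. At chr2:55461941-55464812 H3K27ac scored 1399, 1252, 2122 and 2313 in the rosiglitazone libraries and had no peak in the DMSO and GW3965 libraries, and RNAP2 was present in all 10 libraries. At chr17:39035190-39038953 the H3K27ac scores with rosiglitazone were 328, 1134, 2134 and 313, again with no peak in the other 6 libraries. The site at chr15:69747595-69750708 had H3K27ac in all 4 rosiglitazone libraries and in 3 of 4 GW3965 libraries. The receptor peak nearest to each of these 3 sites lay 1271 to 1813 bp away. Over the 33 members gained at 24 h of rosiglitazone, the median gap to any receptor peak was 2716 bp and 25 lay within 10000 bp, compared with a median of 10185 bp over all members. By receptor the median gap of these 33 was 4196 bp to LXRA-FLAG, 15402 bp to LXRB and 9787 bp to PPARG, compared with 13294, 21500 and 23634 bp over all members.

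RNAP2 peaks changed at more members than H3K27ac peaks, but replicates also disagreed on RNAP2 at more members. In DMSO 117 members had an RNAP2 peak in only 1 of 2 libraries. There were 213 and 78 such members at 24 and 48 h of GW3965, and 142 and 99 with rosiglitazone. These were 8.27% to 22.6% of the members, against 6.34% to 14.5% of the receptor-bound sites. Each count was above the number gained or lost in any treated group. With GW3965, 30 members lost RNAP2 at 24 h (3.18%, with 5.70% over all JunD sites) and 53 at 48 h (5.62%, with 13.5%), and 3 and 10 gained it (0.318% and 1.06%, with 0.156% and 0.167%). With rosiglitazone, 70 gained RNAP2 at 24 h (7.42%, with 3.05%) and 35 at 48 h (3.71%, with 1.23%), and 2 and 17 lost it (0.212% and 1.803%, with 0.413% and 2.21%). Gains of RNAP2 were thus a larger share of the members than of all JunD sites in each treated group, and losses a smaller one, but the classes differed in how many sites could change. Of the sites without RNAP2 in DMSO, which were 267 members and 478 receptor-bound sites, 26.2% of the members and 42.5% of the receptor-bound sites gained it at 24 h of rosiglitazone, and 13.1% and 15.7% at 48 h. With GW3965, 1.12% of these members and 2.30% of these receptor-bound sites gained it at 24 h, and 3.75% and 1.05% at 48 h. Of the 559 members and 7031 receptor-bound sites with RNAP2 in both DMSO libraries, 5.37% and 6.84% lost it at 24 h and 9.48% and 16.4% at 48 h of GW3965. With rosiglitazone 0.358% and 0.498% lost it at 24 h and 3.04% and 2.57% at 48 h. The share of the members was thus the higher one for the gain at 48 h of GW3965 and the loss at 48 h of rosiglitazone, and the lower one in the other 6 comparisons. Wilson intervals did not overlap for the gain at 24 h of rosiglitazone and the loss at 48 h of GW3965, and overlapped in the rest. This again is a description over sites of the same libraries and not a test. The median width was 878 and 876 bp at the members that lost RNAP2 with GW3965 at 24 and 48 h, and 867 bp at those that gained it with rosiglitazone at 24 h.

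**Figure D5:**
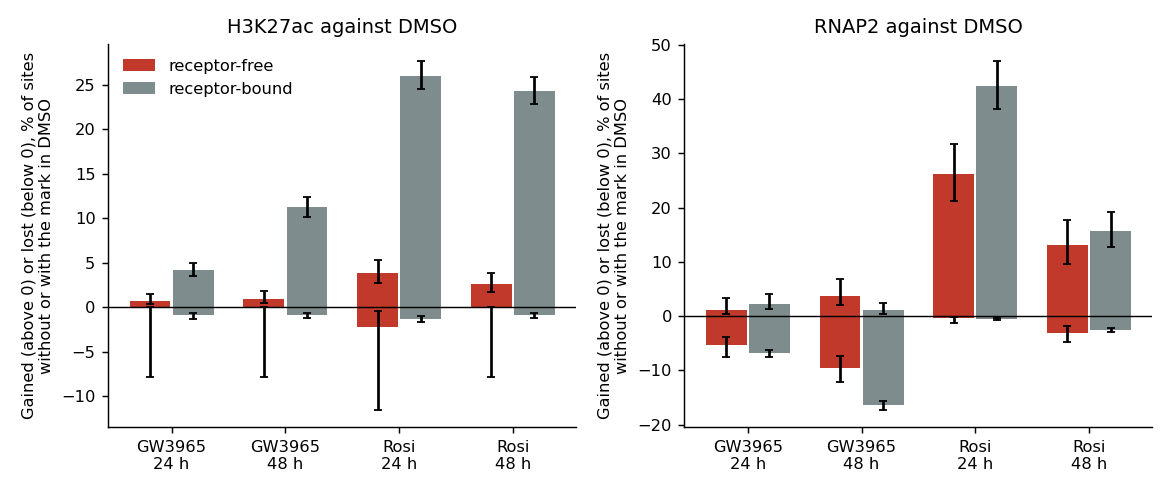
Bars give the percentage of receptor-free (red) and receptor-bound (grey) JunD sites that gained H3K27ac (left) or RNAP2 (right) among those without it in DMSO (above 0), and that lost it among those with it in both DMSO libraries (below 0), with Wilson 95% intervals. Receptor-free sites gained H3K27ac at 0.698% to 3.84% and receptor-bound sites at 4.19% to 26.0%, and the wide intervals below 0 for H3K27ac rest on 45 receptor-free sites.

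Between the drugs, the members carried more RNAP2 with rosiglitazone than with GW3965, 73.1 ± 4.68% against 56.0 ± 8.87% (SD, n = 4 libraries each). Here and below, the 4 libraries of a drug join 2 at 24 h and 2 at 48 h, so the SD holds time as well as replicate. The difference was 17.1 percentage points (exact two-sided permutation test, p = 0.0286, the smallest for 4 against 4, adjusted p = 0.08). All 4 rosiglitazone libraries were above all 4 GW3965 libraries, and without the GW3965 library at 24 h Rep1 the difference was 13.1 points. The receptor-bound sites moved along, with 89.9 ± 6.39% against 74.0 ± 4.81%, and the gap between the classes differed by -1.21 points between the drugs (exact permutation test, p = 0.943). The share with H3K27ac was 10.7 ± 1.32% with rosiglitazone and 8.35 ± 0.469% with GW3965 (exact permutation test, p = 0.0286, adjusted p = 0.08). Its gap to the receptor-bound sites was 59.6 ± 1.10 points with rosiglitazone and 52.5 ± 3.501 with GW3965 (p = 0.0286 by the same exact test, adjusted p = 0.08). None of these comparisons passed 0.05 after adjustment. The libraries also differed in the total length covered by peaks, from 36.9 Mb to 67.0 Mb for RNAP2 and from 49.4 Mb to 75.5 Mb for H3K27ac, and the part of this in the differences was tested only by equal numbers of peaks, under which the RNAP2 difference was 13.2 points (exact permutation test, p = 0.0571). Comparisons of either drug with the 2 DMSO libraries cannot give a p below 0.133.

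The RNA of JunD itself was lower with GW3965 than with DMSO at 48 h. In both, the mean was higher at 48 h than at 24 h, a difference between times that was not tested. Mean JUND was 108 CPM at 24 h and 263 CPM at 48 h in DMSO, and 125 and 162 CPM with GW3965 (each time scaled separately). JUND (ENSG00000130522.3) was at 256, 242, 268 and 284 CPM in DMSO at 48 h, at 174, 152, 159 and 162 CPM with GW3965 and at 339, 391, 292 and 276 CPM with rosiglitazone. The GW3965 libraries were all below the DMSO libraries (log2 fold change -0.70 ± 0.10 SE, adjusted p = 1.23e-05 by edgeR's quasi-likelihood test), and rosiglitazone did not pass the threshold of 0.01 with 1.5-fold (log2 fold change 0.30 ± 0.10 SE, adjusted p = 0.0229 by the same test, and 0.12 with adjusted p = 0.328 when scaled by library size alone). At 24 h JUND was at 99, 115, 108 and 111 CPM in DMSO, and neither GW3965 (log2 fold change 0.20, adjusted p = 0.417) nor rosiglitazone (0.13, adjusted p = 0.468) passed with edgeR. The GW3965 value rested on 1 library at 84.9 CPM, without which it was 0.35 (adjusted p = 0.000493 by edgeR), still under 1.5-fold.

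Of 14 genes of AP1 subunits and their partners 12 were measured at each time. At 48 h of GW3965, 9 were lower than in DMSO at the same hour (7.78% of all genes were) and 1 was higher (8.27% of all genes). The lower ones were JUND, JUN (log2 fold change -0.80), JUNB (-1.39), FOS (-1.43), FOSB (-1.42), FOSL1 (-2.40), FOSL2 (-0.87), ATF3 (-3.14) and JDP2 (-0.82), and the higher one was BATF2 (0.94). ATF3, a stress-induced factor, was at 14 to 19 CPM with GW3965 and at 131 to 144 CPM in DMSO, and the groups did not overlap. At 24 h it had averaged 3.46 CPM in DMSO and 7.43 CPM with GW3965, so its mean was higher at 48 h in both, but far more so in DMSO. Differences between the times were not tested. FOS averaged 23.7 CPM at 24 h and 114 CPM at 48 h in DMSO, and 30.2 and 42.5 CPM with GW3965. Of the lower genes only FOSL1 had a smaller mean at 48 h than at 24 h of GW3965 (13.6 and 26.2 CPM). At 48 h of rosiglitazone 4 were higher (4.79% of all genes), namely JUN (0.91), FOS (0.91), FOSL1 (1.14) and FOSL2 (0.76, which did not pass under scaling by library size alone, where the median log2 fold change of all genes moved by -0.18), and BATF2 was lower (-1.58, with 7.4% of all genes lower). At 24 h GW3965 raised JDP2 (0.88) and ATF3 (1.10) and lowered BATF2 (-1.39), with 0.992% of all genes higher and 0.344% lower, and rosiglitazone raised ATF3 (0.77) and FOS (1.11) and lowered 0, with 1.81% of all genes higher and 3.13% lower. JunD binding was measured in DMSO alone, so no site can be set against these RNA changes.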

How the data were processed

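The members and lists were chosen with earlier results of these data known. The authors called ChIP-seq peaks in single replicates over input, and the deposited score is minus 10 times the log10 of the p-value of each peak. The submitters' processing notes name Bowtie, MACS, TopHat, Cufflinks and hg19, without versions. For RNA-seq, the authors deposited whole-number counts per gene without normalization. Peaks on chromosomes 1 to 22 and X were used (2 others were left out) and read as 0-based BED intervals. Peaks called per library depend on its depth, which is unknown, and a site without a peak may hold signal below the limit of the caller.

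Sites were merged, overlapped (at least 1 bp) and counted with numpy 2.4.6 and pandas 2.3.3 (Python 3.11.15), tests used scipy 1.17.1 and figures matplotlib 3.10.9. Shares carry Wilson 95% intervals for counting error only. Libraries were the units of exact permutation and sign-flip tests, adjusted by Benjamini-Hochberg over 14 tests. RNA was fitted with edgeR 4.0.16 in R 4.3.3 on the 16 libraries of a time point with TMM scaling and its filter for low counts (21781 genes at 24 h and 22470 at 48 h). Genes were called at an adjusted p under 0.01 and at least 1.5-fold over all genes, and DESeq2 1.42.0 was an alternative. No site or run on chromosome 8 was named. Other sites were named by rule: the 6 highest scores, the 3 highest without marks, up to 3 gained or lost in all 4 libraries of a drug, the 3 nearest to a receptor peak and the 3 sites with 1 weak receptor contact. JUND and called AP1 genes were named. The scripts were tested on simulated data. Nearest genes and AP1 motifs were not analysed here, because no hg19 sequence or annotation was used.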

Additional observations from a re-analysis of the deposited data

Results flagged for a closer look

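Rosiglitazone and GW3965 differed in the share of receptor-free sites with H3K27ac by 2.36 percentage points, in the H3K27ac gap to receptor-bound sites by 7.10 points and in the share with RNAP2 by 17.1 points (exact permutation tests over 4 against 4 libraries, p = 0.0286 each, adjusted p = 0.08). These are listed because the unadjusted test of the difference passed 0.05.

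Some AP1 genes also differed between the 2 drugs, by the contrast of rosiglitazone with GW3965 in edgeR. Only JUND and AP1 genes called against DMSO were considered. Those listed passed an adjusted p under 0.01 with 1.5-fold in this contrast. The share of all genes that passed it was not counted, so the length of the list cannot be set against that share. At 48 h the log2 differences were 1.002 for JUND, 1.71 for JUN, 1.5002 for JUNB, 2.33 for FOS, 1.59 for FOSB, 3.53 for FOSL1, 1.63 for FOSL2, 3.46 for ATF3, 0.66 for JDP2 and -2.52 for BATF2. At 24 h they were -1.5001 for JDP2 and 0.76 for FOS.

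Single RNA libraries stood apart from the other 3 of their group, relative to the range of the group, by Dixon's test. This test flags about 1 in 20 groups by chance. It was run on each of the 12 genes in DMSO, GW3965 and rosiglitazone at each time, so some flags come by chance. A flagged value can be close to the others in CPM. JUND was at 84.9 CPM in 1 library of GW3965 at 24 h, where the others were at 134 to 140 CPM. At 24 h, JUNB was at 72.2 CPM and ATF3 at 5.41 CPM in 1 rosiglitazone library each, and BATF2 at 4.05 CPM in 1 DMSO library. At 48 h, FOSB was at 13.9 CPM in 1 DMSO library, where the others were at 12.5 to 12.7 CPM. FOSL2 was at 103 CPM in 1 GW3965 library.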

How the results depend on the processing

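The H3K27ac gap between receptor-bound and receptor-free sites kept its direction and passed 0.05 under all 28 alternatives, with values from 23.1 to 75.8 percentage points, and the RNAP2 gap under 27 of 28, with values from 0.293 points in the highest quartile of JunD score, which did not pass, to 39.6 in the narrowest quartile of width, among them 31.6 without replicate 1 of JunD and the receptors, 8.56 by base pairs covered and 5.92 in the widest quartile. Peaks reflect unknown depth, so an absent peak does not show absent binding. Receptor-free sites numbered 1928 with receptor sites of both replicates only, 1639 with LXRB and PPARG only, 562 with scores of at least 200, and 2282 to 2615 without replicate 1 or 2 of JunD and the receptors. All 16 named members overlapped receptor-free sites under these rules, except at scores of at least 200, where 13 did. The ratio of JunD peak widths was 0.718 with receptor peaks over the site centre, 1.11 with both replicates, 1.14 with endogenous receptors, 0.680 at scores of at least 200 and 0.970 to 1.18 without 1 replicate, and that of scores 1.23 to 1.39 without 1 replicate. Members with RNAP2 and no H3K27ac in DMSO made up 45.5%, 40.8%, 41.5% and 64.4% under the first 4 of these rules in the order centre, both replicates, endogenous and score, 34.1% to 44.1% without 1 replicate, 42.6% with mark scores of at least 200 and 48.7% with equal numbers of mark peaks (an addition after seeing the data).

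Rosiglitazone minus GW3965 in the H3K27ac share lost its unadjusted call at 1.82 points (receptor peak over the centre), 3.75 (endogenous receptors), 2.09 (mark over the centre), 1.62 (mark scores of at least 200), 1.803 (equal mark peaks), 1.35 (base pairs covered, added after seeing the data), 2.48, 1.63 and 0.932 in quartiles 1, 2 and 4 of score and 0.955 in quartile 4 of width, and was -0.746 in quartile 3 of width. In the H3K27ac gap it did so at 4.51 (both replicates) and at 8.21 and 0.833 in quartiles 2 and 4 of width. In the RNAP2 share it did so at 13.2 (equal mark peaks), 6.06 (quartile 4 of score) and 10.1 (quartile 4 of width). In the RNAP2 gap it was 2.70 (centre), 6.29 (mark scores of at least 200), 0.776 (equal mark peaks), 2.33 and 0.361 in quartiles 1 and 3 of score and 6.41 in quartile 1 of width, and -7.59 with p = 0.0286 (exact permutation test) with both replicates. Leaving out 1 library or replicate gave 1.90 to 2.96 and 5.82 to 8.64 for the H3K27ac share and gap and 13.1 to 19.8 and -3.72 to 3.72 for RNAP2. With 1 mark library left out, 3 against 4 cannot reach 0.05, but the H3K27ac share also lost its call with all 8 mark libraries without replicate 1 of JunD and the receptors (2.56 points, p = 0.0571 by the exact permutation test). With the replicate block the differences were 2.36, 7.10 and 17.1 points, at p = 0.125 each (exact sign-flip test over 4 pairs), the smallest this test can give. The numbers were not shown to pair libraries, as differences between Rep1 and Rep2 changed sign between conditions, and for RNA the deviations of same-numbered libraries correlated at -0.003 on average at 24 h and 0.030 at 48 h. The replicate block changed no RNA call.

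Gains of H3K27ac at GW3965 24 h, GW3965 48 h and rosiglitazone 48 h were 2, 4 and 14 with the mark over the centre and 2, 5 and 11 at scores of at least 200, and 2 and 5 with GW3965 under equal mark peaks. Losses of H3K27ac were 1 at GW3965 24 h with the centre, and 2 at GW3965 48 h and 3 at rosiglitazone 24 h under equal mark peaks. Losses of RNAP2 were 12, 23 and 5 (GW3965 24 h, GW3965 48 h and rosiglitazone 48 h) at scores of at least 200, and 11, 31 and 9 under equal mark peaks, where rosiglitazone 24 h lost 1 and GW3965 24 h gained 6. For RNA, JUND kept its direction and its calls at 0.01 with 1.5-fold under every alternative run, but library size scaling moved rosiglitazone to 0.12 at 48 h and 0.035 at 24 h (adjusted p = 0.328 and 0.838, edgeR), and leaving out 1 library gave 0.14 to 0.35 for GW3965 at 24 h and 0.20 to 0.37 for rosiglitazone at 48 h (0.20 without rosiglitazone replicate 2). Library size scaling added 1 lower AP1 gene (JDP2) at rosiglitazone 24 h and took FOSL2 from the higher ones at 48 h. Leaving out 1 library gave 1 or 2 AP1 genes higher at GW3965 24 h and 0 or 1 lower at rosiglitazone 24 h. The AP1 motif alternative was not run. The cause of these changes was not tested.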
